A study of Mus musculus with 134 samples.

Results

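SET-seq profiled the cytoplasmic RNA and the chromatin of the same mouse embryonic stem cells, and the gene expression side of that assay was compared here between Aebp2 knockout clones and wild-type cells. The members were chosen from the sample titles. They were 4 expression libraries of the clones KO1 and KO2, with 2 libraries of each clone, and the 2 expression libraries of H3K27me3 SET-seq on 10000 wild-type cells. These 6 libraries were drawn from 54 bulk expression libraries and from 134 samples in all.

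The cells of every library carried the label E14, strain 129/Ola, untreated and day 1, and were grown on gelatin in serum with leukemia inhibitory factor (LIF). The knockout cells differed by design in Aebp2, which was disrupted with CRISPR/Cas9 and 1 of 2 guide RNAs. Each clone was 1 cell line, and the labels did not tie a clone to a guide or give the number of knockout cells used. All 6 libraries came from cytoplasm left after the nuclei had been captured on beads, followed by oligo-dT reverse transcription and 5 min of tagmentation at 37 °C. Another set, 8 in vitro libraries tagmented at 37 °C from column-purified total RNA of unmodified E14 cells, was used as an outside reference, because, like the knockout clones and unlike the wild-type SET-seq cells, those cells held almost no Hprt RNA.

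Polycomb repressive complex 2 (PRC2) places trimethylation on lysine 27 of histone H3, the mark H3K27me3, and keeps developmental regulators silent in embryonic stem cells. EZH2 or EZH1 carries the catalytic activity, with SUZ12, EED and RBBP4 or RBBP7 as core partners. AEBP2 is a zinc finger protein that joins the complex together with JARID2, while other forms of the complex carry MTF2, PHF1 or PHF19 with EPOP or LCOR. Mouse embryonic stem cells in serum and LIF hold a pluripotent state that depends on OCT4 (Pou5f1), SOX2 and NANOG, and a small fraction of them passes through a state that expresses genes of the 2-cell embryo.

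The 2 guides are shown because they place the intended break in Aebp2 (chr6:140571184-140626993 in mm9, plus strand). The first 20 bases of each are the guide in lower case, and the 3 capitals are the PAM that follows the guide in the genome.
Aebp2 sg#1: attcgctccatacatgtcgaTGG
Aebp2 sg#2: aacaggtgttcgtttgcttgTGG
Guide sg#1 lay at chr6:140582382-140582401 on the plus strand, in exon 2 of a transcript of 10 exons, and its predicted cut fell after base 140582398. Guide sg#2 lay at chr6:140586176-140586195 on the plus strand. Its first 5 bases were intronic and the rest fell in exon 3, with the predicted cut after base 140586192. Both cuts lay in coding sequence in 9 of 14 annotated transcripts, and each guide with its PAM had 1 exact match in the genome.

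Aebp2 RNA was lower in the clones, and the clones were unequal. Wild type held 65.5 and 76.0 CPM (counts per 1000000 counts of the library after leaving out the ribosomal RNA gene Rn45s). KO1 held 15.7 and 15.0 CPM, and KO2 held 49.7 and 30.2 CPM. All 4 knockout libraries lay below both wild-type libraries, and KO1 lay below KO2. The 18 other wild-type SET-seq libraries ranged from 0 to 67.3 CPM (median 51.2 CPM) and overlapped the knockout. Among them, the 2 libraries made without antibody held 34.5 and 36.4 CPM, between the 2 KO2 libraries, and against these the log2 fold change was −0.47 (adjusted p = 0.303). Against the 2 wild-type libraries compared here, the log2 fold change of knockout minus wild type was −1.20 ± 0.36 (standard error, SE), with an adjusted p of 0.0149 (edgeR's quasi-likelihood test, Benjamini-Hochberg), which left 43.5% of the wild-type level. The difference between the clones, KO1 minus KO2, was −1.46 on the log2 scale with an adjusted p of 0.00561. Without the second wild-type library the log2 fold change was −1.08 with an adjusted p of 0.131, and without either library of KO1 it was −0.98 or −0.99 and under the size required for a call. The in vitro libraries held 65.6 to 84.6 CPM and did not show the fall (log2 difference from wild type 0.18 ± 0.11, adjusted p = 0.128). A break that shifts the reading frame need not lower the RNA, so the level does not measure loss of the protein. The study also reported Western blots of parental and knockout cells and Sanger sequencing of the clones, which were not analysed here.

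**Figure D1:**
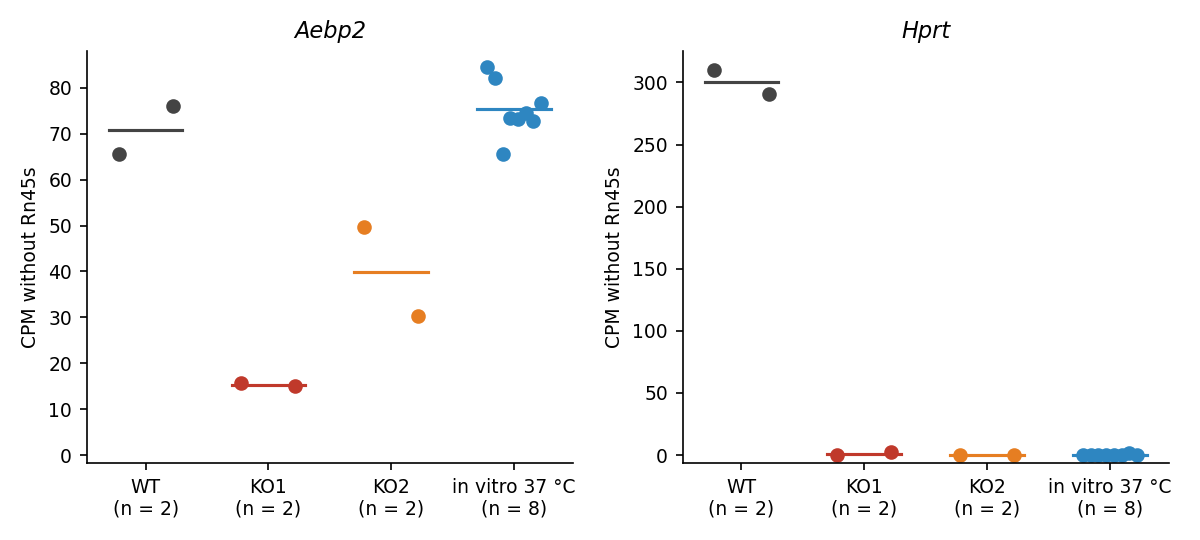
Aebp2 (left) and Hprt (right) in CPM without Rn45s, with 1 point per library and a line at the group mean, for wild type (WT, n = 2), KO1 (n = 2), KO2 (n = 2) and the in vitro libraries at 37 °C (n = 8). Of the libraries plotted, Aebp2 was lower than WT in the 4 knockout libraries only, whereas Hprt was near 0 in the knockout and the in vitro libraries alike.

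Hprt, the X-linked enzyme of purine salvage (chrX:50341255-50374837), separated the cells by more than any PRC2 gene. Wild type held 310 and 291 CPM. KO1 held 0 and 2.14 CPM, and both KO2 libraries held 0. The in vitro libraries held 0 to 1.29 CPM, while 18 other wild-type SET-seq libraries held 66.2 to 485 CPM. The counts were 1353 in wild type and 2 in knockout, a ratio of 605 in CPM (95% exact interval 167 to 5000, counting error only). The line E14TG2a is known for a deleted Hprt gene, and in this gene the knockout and in vitro libraries were alike and the wild-type SET-seq libraries were not. Ftl1, the ferritin light chain (chr7:52713314-52715256), followed the same pattern, at 6640 and 7152 CPM in wild type, 0 to 2.14 CPM in knockout, 7.96 to 18.3 CPM in vitro and 4704 to 8391 CPM in the other wild-type SET-seq libraries. All of these cells carried the same E14 label, and whether they came from one stock was not tested. The knockout libraries also held a larger share of Rn45s and were counted with another version of featureCounts. The Aebp2 genotype, the Hprt and Ftl1 difference and these library differences coincided, so their parts in a change cannot be told apart. Because of the Hprt and Ftl1 difference, the changes below are set beside the in vitro libraries. A change counts as already shown in vitro where the in vitro log2 difference from the same wild-type libraries had the same sign and at least 50% of the size. The in vitro libraries also differ from SET-seq in holding total RNA, and both comparisons share the 2 wild-type libraries, so they are not independent. The agreement that the shared libraries alone would give was not measured, and the count of changes already shown is a description.

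Total counts were 1585518 and 4347796 in wild type and 1964974 to 2351822 in knockout. Rn45s took 21.9% and 23.4% of them in wild type and 48.8% to 56.7% in knockout, against 33.0% to 40.7% in vitro. Without it, 1237504 and 3330413 counts were left in wild type and 935126 to 1124026 in knockout. The embryonic stem cell markers were expressed throughout, with 9 genes summing to 5341 and 5426 CPM in wild type, 3680 to 4251 CPM in knockout and 3796 to 4272 CPM in vitro. The summed markers of primitive endoderm stood at 9.70 and 9.91 CPM in wild type and 8.55 to 13.9 CPM in knockout, those of mesoderm at 7.81 and 9.70 against 3.56 to 13.7 CPM, and those of fibroblasts at 5.66 to 13.8 against 1.78 to 15.7 CPM, with Lum and Dcn at 0 in both groups. Neural markers summed to 126 and 128 CPM in wild type, 54.9 to 82.5 CPM in knockout and 6.01 to 12.8 CPM in vitro. Of these 5 genes only 1 was expressed enough to be tested, and it was not called. Trophoblast markers, 6 genes, summed to 17.8 and 18.0 CPM in wild type, 44.7 to 52.5 CPM in knockout, where Elf5 was at 0, and 16.7 to 29.4 CPM in vitro. In bulk libraries, fewer cells of a type and less RNA per cell cannot be told apart.

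The clones differed from wild type in many of the genes tested, and whether more or fewer than 50% of those differences were already shown in vitro depended on the rule. Of 9523 genes tested, 2663 were called (28.0%, adjusted p below 0.05 and an absolute log2 fold change above 1), with 1291 higher (13.6%) and 1372 lower (14.4%) in knockout. The same 2 wild-type libraries against the in vitro libraries gave 3709 calls of 10807 genes (34.3%), in 1824 genes higher and 1885 lower in vitro. Of the 2663 genes, 1465 (55.0%) were already shown in vitro, 729 of the 1291 that rose (56.5%) and 736 of the 1372 that fell (53.6%). The falls include Hprt, for whose low level the reference was chosen. The share was 45.2% with in vitro libraries tagmented at 16 °C and 45.3% when an in vitro call in the same direction was required. With ligation-based RNA-seq as the reference, which held 181 and 184 CPM of Hprt, it was 57.2%. That reference was also set against the same 2 wild-type libraries, and their part in each of these shares was not measured. The other 1198 included 441 genes whose in vitro difference had the opposite sign, 62 of which were called in that direction, and 35 genes too low in vitro to be tested. The knockout and wild-type libraries did not overlap in 2595 of the called genes, but this also held for 59.6% of all genes tested. Leaving out 1 library at a time gave 1822 to 2821 calls.

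**Figure D2:**
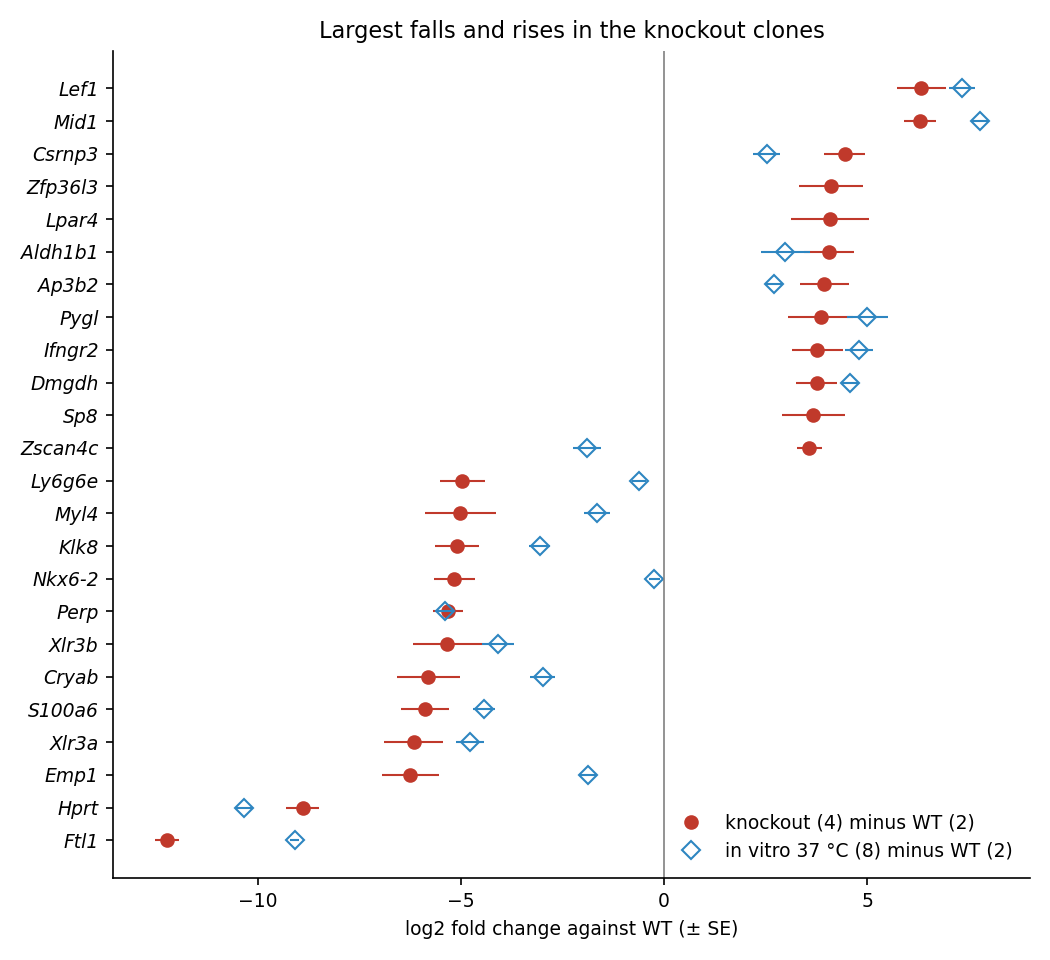
Log2 fold change against the 2 wild-type libraries (x axis, ± SE) of the 12 largest rises and the 12 largest falls in the knockout clones, for the 4 knockout libraries (red) and the 8 in vitro libraries (open blue); a gene without a blue marker was too low in vitro to be tested. Lef1, Mid1, Hprt, Ftl1 and Perp moved far in the same direction in vitro, while Zscan4c moved the opposite way and Nkx6-2 stayed near 0. The in vitro reference was chosen for its low Hprt.

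Of the 12 largest rises, 8 were already shown in vitro, among them Lef1 and Mid1 at the top of the list. The choice of these 12, and of the largest falls below, required that knockout and wild-type libraries did not overlap. Lef1, a transcription factor that binds beta-catenin at Wnt targets (chr3:130813215-130927275), was at 0 and 0.901 CPM in wild type, 75.5 and 71.6 CPM in KO1, 37.8 and 32.0 CPM in KO2 and 85.8 to 133 CPM in vitro. Wild type and knockout lay far apart, at 3 counts against 218, a ratio of 81.3 in CPM (95% exact interval 27.4 to 397). This interval and those below hold counting error only. The knockout libraries lay below the in vitro range. Mid1, an X-linked ubiquitin ligase (chrX:166123131-166428729), rose from 1.62 and 2.70 CPM to 122 to 240 CPM (log2 fold change 6.30 ± 0.40, adjusted p = 2.86e-07) and stood at 446 to 544 CPM in vitro. Dmgdh, dimethylglycine dehydrogenase, rose 13.5-fold, the liver-type glycogen phosphorylase gene Pygl rose 14.4-fold and the interferon gamma receptor gene Ifngr2 rose 13.6-fold, and their in vitro log2 differences of 4.57, 5.00 and 4.79 were larger than those of the knockout (3.75, 3.85 and 3.77). For Csrnp3, Ap3b2 and Aldh1b1, a mitochondrial aldehyde dehydrogenase, the knockout rose further (4.44, 3.94 and 4.05) than the in vitro libraries (2.52, 2.70 and 2.98). The remaining 4 of the 12, Zfp36l3, Lpar4, Sp8 and Zscan4c, were not shown in vitro.

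The largest falls, Ftl1 and Hprt included, reached levels of a few counts in the knockout. Perp, a p53 target of cell junctions (chr10:18564877-18576878), was at 80.8 and 97.9 CPM in wild type, 3.92 and 2.14 CPM in KO1, 0.994 and 0.890 CPM in KO2 and 0 to 3.29 CPM in vitro. Its log2 fold change of −5.32 ± 0.37 (adjusted p = 5.75e-07) was close to the in vitro value of −5.39 ± 0.20. S100a6, a calcium-binding protein, had 178 counts in wild type and 2 in knockout, a ratio of 79.6 in CPM (95% exact interval 21.7 to 662), and was already shown in vitro. The same held for Cryab, a small heat shock protein, with 89 counts against 1 (ratio 79.6, 13.9 to 3178), and for the protease gene Klk8, with 142 against 3 (ratio 42.3, 14.2 to 208). The X-linked Xlr3a and Xlr3b fell in both settings too, but they are close copies of one another and reads that fit several places were not counted, so their separate values are uncertain. Cryab shared 20.6% of its exon bases with Hspb2.

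The rises that did not count as already shown in vitro included 3 Zscan4 genes, the Nodal inhibitor gene Lefty1 and the epiblast factor gene Zic2. Zscan4c, a marker of the transient 2-cell-like state (chr7:11591094-11595896), was at 17.8 and 10.8 CPM in wild type, 159 and 194 CPM in KO1, 130 and 98.8 CPM in KO2 and 1.61 to 5.20 CPM in vitro. The choice of these genes required every knockout library to lie above both wild-type libraries, whereas every in vitro library lay below them. The log2 fold change was 3.57 ± 0.31 (adjusted p = 2.97e-06) in knockout and −1.89 ± 0.34 (adjusted p = 1.48e-05) in vitro. Lefty1, a secreted inhibitor of Nodal (chr1:182865153-182868532), was at 21.0 and 18.6 CPM in wild type, 245 and 229 CPM in KO1, 159 and 164 CPM in KO2 and 19.7 to 26.0 CPM in vitro (log2 fold change 3.48 ± 0.25, adjusted p = 6.87e-07). The in vitro range reached down into the wild-type range, and the knockout range lay far above both. Zic2, a zinc finger factor of the epiblast and neural plate (chr14:122874606-122879550), was at 11.3 and 10.8 CPM in wild type, 113 and 98.4 CPM in KO1, 79.5 and 89.9 CPM in KO2 and 12.6 to 27.5 CPM in vitro. Its in vitro rise was itself called (log2 1.04 ± 0.27, adjusted p = 0.0013) but was short of 50% of the knockout rise (3.24 ± 0.25). Nlrp4f, an oocyte-expressed member of the NLR family, rose from 2.42 and 2.10 CPM to 15.9 to 29.9 CPM and stood at 0 to 0.643 CPM in vitro.

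Sp8, a zinc finger factor of limb and forebrain, Vrtn and Zfp36l3, an RNA-binding protein of the rodent placenta, rose from low levels. Sp8 was at 0.808 and 0.901 CPM in wild type and 3.56 to 17.7 CPM in knockout, Vrtn at 0.808 and 0.901 against 4.97 to 13.7 CPM, and Zfp36l3 at 1.62 and 0.300 against 8.01 to 18.2 CPM. Lpar4, a lysophosphatidic acid receptor, was at 1.62 and 0.300 against 3.98 to 27.8 CPM. In vitro all 4 were too low to be tested, at no more than 2.65 CPM (Sp8), 2.57 CPM (Vrtn), 5.41 CPM (Zfp36l3) and 2.65 CPM (Lpar4). Without the second wild-type library these 4 kept log2 fold changes of 3.72 (Sp8), 3.6 (Vrtn), 2.95 (Zfp36l3) and 2.92 (Lpar4), with adjusted p values of 0.0536, 0.0559, 0.0537 and 0.108. They therefore rested on that library for the call.

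Of the largest falls that the in vitro libraries did not show, Nkx6-2, a homeobox factor, was at 40.4 and 43.2 CPM in wild type, 0.981 and 2.14 CPM in KO1, 0.994 and 0 CPM in KO2 and 25.2 to 36.7 CPM in vitro. The knockout libraries lay far under both other sets, and the log2 fold change was −5.16 ± 0.50 (adjusted p = 6.25e-06) against −0.24 ± 0.14 in vitro. Slc11a1, a divalent metal transporter, went opposite ways, from 35.6 and 27 CPM in wild type to 0.890 to 2.14 CPM in knockout and 56.0 to 76.3 CPM in vitro. The connexin gene Gjb5 fell 16.6-fold, from 67.1 and 53.7 CPM to 1.96 to 4.45 CPM, and stood at 23.9 to 47.4 CPM in vitro. Xaf1, which binds the apoptosis inhibitor XIAP, fell 22.6-fold, and calretinin (Calb2) fell 16.5-fold. Both also fell in vitro, by less than 50% of the log2 change in knockout (−1.60 against −4.50 for Xaf1 and −1.41 against −4.04 for Calb2). Emp1, an epithelial membrane protein, had 122 counts in wild type and 1 in knockout, a ratio of 109 in CPM (95% exact interval 19.2 to 4344). It was also called lower in vitro, at 5.00 to 11.9 CPM (−1.87 ± 0.23, adjusted p = 2.63e-08), which was under 50% of the knockout log2 change of −6.24. Ly6g6e had 128 counts against 3 (ratio 38.2, 12.8 to 187) and an in vitro log2 difference of −0.62 ± 0.18.

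**Figure D3:**
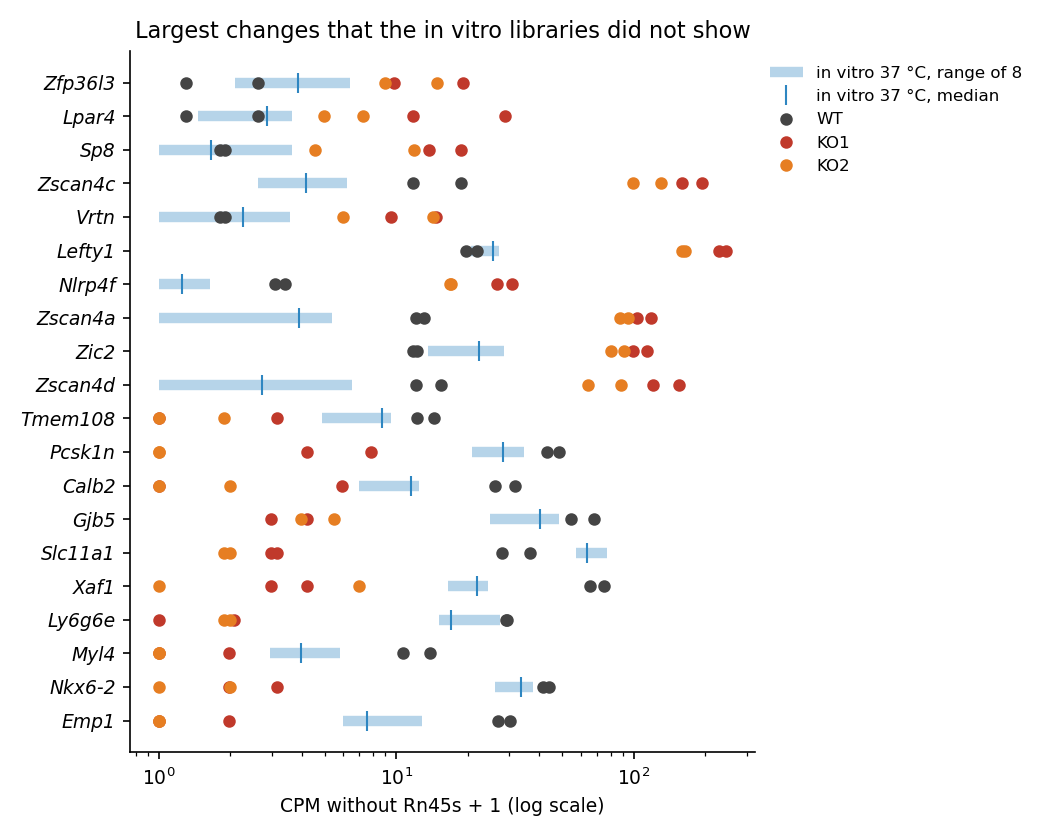
CPM without Rn45s plus 1 (log axis) of the 10 largest rises and the 10 largest falls that the in vitro libraries did not show, with 1 point per library for WT (dark), KO1 (red) and KO2 (orange) and the range and median of 8 in vitro libraries (blue). The choice of these 20 genes required the knockout points to lie on 1 side of both wild-type points; for the 3 Zscan4 genes the in vitro range lay on the opposite side of wild type.

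No core subunit gene of PRC2 was called lower in the clones. All 6 core genes were tested, 1 rose and 5 were not called (16.7% called, beside 28.0% of all genes tested), with a median log2 fold change of 0.44 beside 0.00 for all genes tested. The one that rose was Rbbp7, a histone-binding subunit, from 149 and 178 CPM to 358 and 368 CPM in KO1 and 404 and 397 CPM in KO2 (log2 fold change 1.36 ± 0.18, adjusted p = 4.61e-05), and the in vitro range of 168 to 224 CPM overlapped wild type and lay below the knockout. The catalytic subunit gene Ezh2 was at 248 and 232 CPM in wild type and 260 to 324 CPM in knockout (0.39 ± 0.17, adjusted p = 0.0712). Suz12 had a log2 fold change of 0.77 ± 0.22 (adjusted p = 0.0101) and Eed of 0.48 ± 0.17 (adjusted p = 0.0313), both below the size required for a call. Suz12 was called higher in vitro, at 639 to 1045 CPM (1.71 ± 0.13, adjusted p = 8.4e-13), while the in vitro differences of Ezh2 (0.75 ± 0.09) and Eed (−0.07 ± 0.09) were not called. The calls depended on the clone and on the wild-type libraries. In KO1 alone Suz12 was called higher (1.05, adjusted p = 1.65e-10). Against wild-type SET-seq without antibody Suz12 (2.60, adjusted p = 1.3e-05), Ezh2 (1.39, adjusted p = 6.88e-05) and Eed (1.40, adjusted p = 0.000436) were each called higher. Ezh1 (0.28 ± 0.28) and Rbbp4 (0.15 ± 0.17) overlapped between the groups.

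The accessory subunits of PRC2 moved in both directions. Of 9 tested, 3 rose and 3 fell (66.7% called, beside 28.0% of all genes tested), and 2 of the 6 were already shown in vitro. Jarid2, the partner of AEBP2, rose from 221 and 238 CPM to 568 and 589 CPM in KO1 and 410 and 425 CPM in KO2 (log2 fold change 1.25 ± 0.18, adjusted p = 0.00012), and the in vitro range was 306 to 371 CPM. Lcor, which encodes a PRC2 partner in one of its isoforms, rose from 32.3 and 34.2 CPM to 68.6 to 99.1 CPM (1.49 ± 0.22, adjusted p = 0.000144) and was at 33.5 to 49.2 CPM in vitro. The related Lcorl rose from 4.85 and 5.10 CPM to 9.79 to 20.6 CPM, which was already shown in vitro and was not called without either wild-type library (adjusted p = 0.115 and 0.15). Besides Aebp2, the genes that fell were Epop and Elob, the elongin B subunit that EPOP binds. Epop, which restrains PRC2 at its targets, fell from 787 and 821 CPM to 229 and 182 CPM in KO1 and 222 and 222 CPM in KO2 (−1.76 ± 0.16, adjusted p = 3.86e-06), beyond the in vitro range of 366 to 436 CPM. Elob fell from 649 and 675 CPM to 246 to 291 CPM (−1.16 ± 0.16), and Eloc, elongin C, stood at 52.8% of wild type (−0.92 ± 0.19, adjusted p = 0.0017). In vitro Elob was at 426 to 550 CPM (−0.27 ± 0.08), and Eloc was called lower there (−1.71 ± 0.10). In KO2 alone Eloc was called lower too (−1.03, adjusted p = 0.000322). Mtf2 (0.09 ± 0.21) and Eloa (−0.06 ± 0.25) overlapped, although Mtf2 was called higher against wild-type SET-seq without antibody (1.87, adjusted p = 7.15e-05), and Phf19 and Phf1 were too low to be tested.

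Of 19 tested PRC1 genes, 2 rose and 1 fell (15.8% called, below the 28.0% of all genes tested), and the median log2 fold change was 0.00. Kdm2b, which recruits a form of PRC1 to CpG islands, rose from 124 and 120 CPM to 238 to 322 CPM (1.34 ± 0.17, adjusted p = 4.17e-05), whereas the in vitro range was 79.6 to 120 CPM. Its partner Pcgf1 fell from 41.2 and 28.8 CPM to 5.96 to 11.6 CPM (−1.85 ± 0.35, adjusted p = 0.000841), with 15.9 to 35.8 CPM in vitro. Cbx6, a reader of H3K27me3, rose from 8.89 and 25.2 CPM to 41.7 to 58.6 CPM, with 19.8 to 30.0 CPM in vitro. None of the 3 changes was shown in vitro.

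Of the enzymes that act on H3K4, the 4 large methyltransferases of the KMT2 family each rose. All 4 lay in the longest quartile of exon length (8484 to 19827 bases), in which 28.5% of all genes tested were called higher. Whether they differ from other long genes was not tested. Of 13 methyltransferase genes tested, 5 rose and 1 fell (46.2% called, beside 28.0% of all genes tested). The median log2 fold change was 0.41 (in vitro −0.45), and 2 of the 6 were already shown in vitro. Kmt2d, an enhancer H3K4 methyltransferase, rose from 179 and 180 CPM to 844 and 729 CPM in KO1 and 596 and 638 CPM in KO2, while the in vitro range was 132 to 151 CPM. Wild type lay between the in vitro and the knockout libraries (log2 fold change 2.10 ± 0.18, adjusted p = 2.97e-06). Its relatives Kmt2a (3.58-fold) and Kmt2b (3.44-fold) were already shown in vitro. Kmt2c rose 3.6-fold (log2 1.85) and also rose in vitro, to 86.2 to 126 CPM from 63.0 and 60.7 CPM, by a log2 difference of 0.91 ± 0.12 (adjusted p = 1.05e-07) that was 0.49 of the knockout change and so just short of the 50% required. The small subunit gene Dpy30 fell (−1.27, in vitro −0.55), and Hcfc1 rose (1.31) where the in vitro libraries were called lower (−1.22). Of 8 demethylase genes tested, 3 rose (37.5% called), each already shown in vitro. These were Kdm5b (3.13-fold), which removes H3K4 methylation, Kdm6b (2.61-fold), which removes H3K27me3, and Kdm1a (2.10-fold), whose log2 fold change without the second library of KO2 was 0.98 and no longer called.

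The de novo DNA methylation genes were among the clearest rises. Of 10 genes of DNA methylation and TET oxidation, 5 rose and 1 fell (median 0.77, in vitro −0.27). This was 60% called, beside 28.0% of all genes tested. Dnmt3a (chr12:3806980-3914443), a de novo DNA methyltransferase, was at 33.9 and 22.8 CPM in wild type, 235 and 229 CPM in KO1, 188 and 189 CPM in KO2 and 25.2 to 49.4 CPM in vitro. The wild-type values lay within or below the in vitro range, and the knockout libraries stood well above both (log2 fold change 3.08 ± 0.23, adjusted p = 8.68e-07). Dnmt3b rose from 44.4 and 51.3 CPM to 133 to 170 CPM (1.77 ± 0.21, adjusted p = 2.06e-05) against 56.0 to 76.9 CPM in vitro. Their cofactor gene Dnmt3l rose from 94.5 and 94.9 CPM to 664 to 765 CPM (3.06 ± 0.18, adjusted p = 2.18e-07) and was already shown in vitro, at 281 to 321 CPM. The maintenance genes Dnmt1 (1.00, in vitro 1.34) and Uhrf1 (1.00, in vitro −0.27) were just past the size required for a call. Tet3, which oxidises methylcytosine, fell from 21.8 and 15.3 CPM to 0 to 5.96 CPM, already shown in vitro, and was not called without the first wild-type library (adjusted p = 0.0574).

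**Figure D4:**
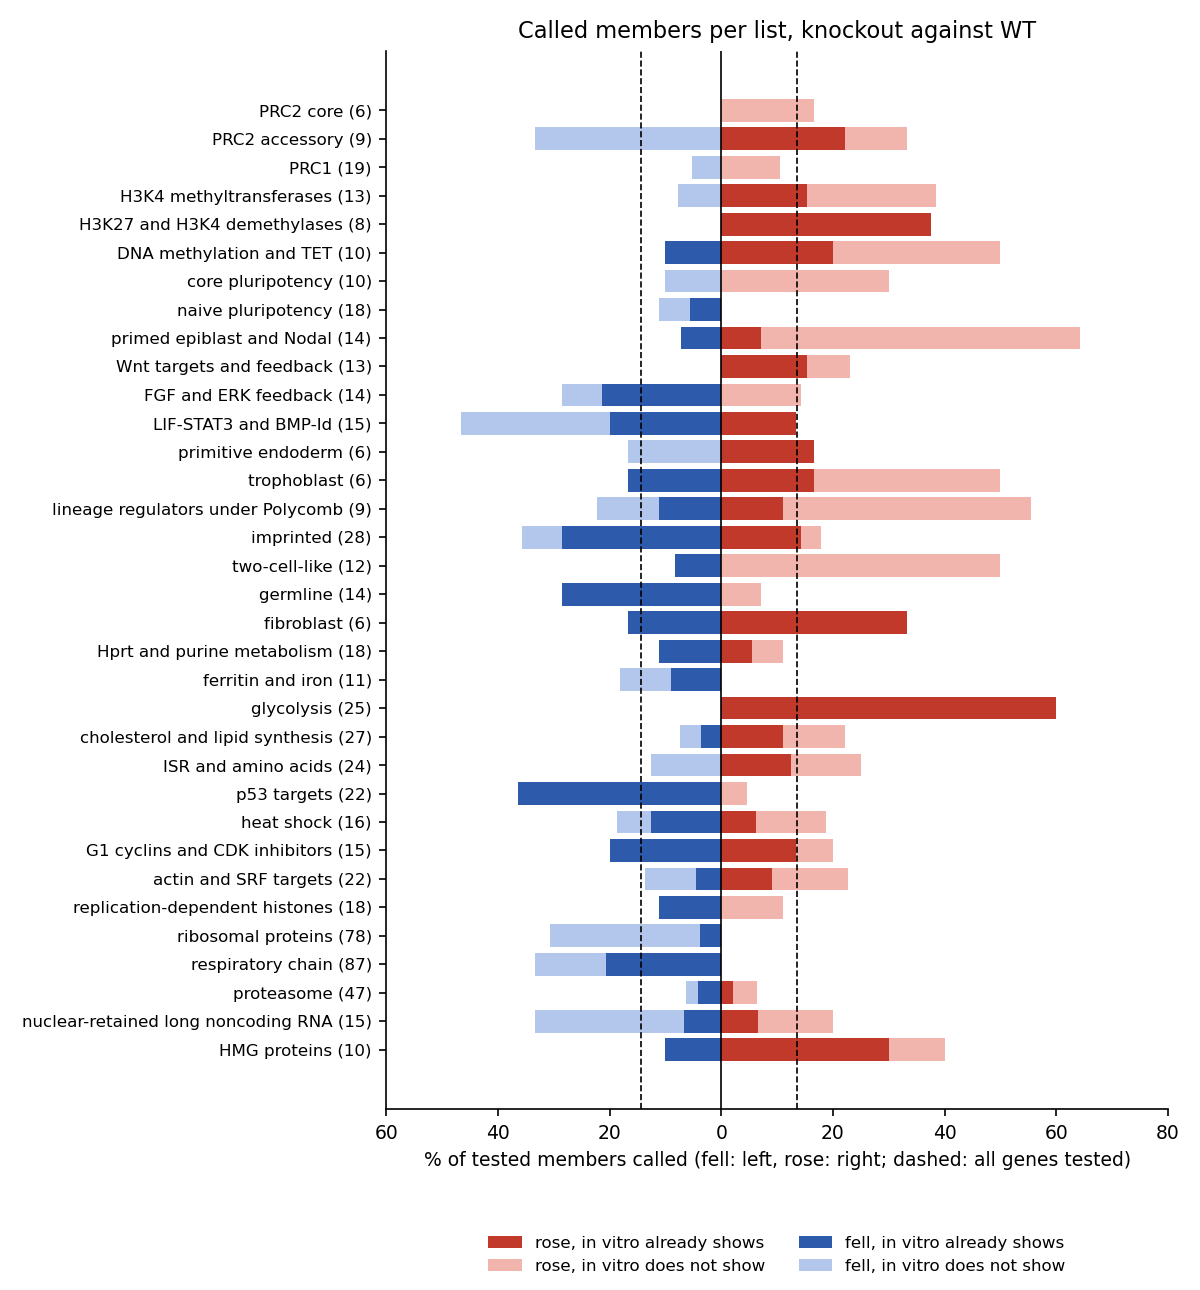
Percent of the tested members of each gene list (number tested in parentheses) that fell (left, blue) or rose (right, red) in knockout against wild type, with the dark part already shown in vitro and the light part not; dashed lines mark the 14.4% and 13.6% of all genes tested that fell and rose. Lists with fewer than 6 tested members are left out, glycolysis is dark throughout, and the primed epiblast and 2-cell-like rises are mostly light.

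The central pluripotency factors were not called against the 2 wild-type libraries. Pou5f1 was at 183 and 170 CPM in wild type and 135 to 183 CPM in knockout (log2 fold change −0.01 ± 0.18), and Sox2 at 146 and 152 against 87.2 to 259 CPM (0.24 ± 0.32), with both groups overlapping. In vitro Sox2 was at 402 to 471 CPM and was called higher (1.66 ± 0.09). Nanog was at 1326 and 1381 CPM in wild type, 929 and 1086 CPM in KO1 and 713 and 484 CPM in KO2 (−0.62 ± 0.22, adjusted p = 0.0363), below the size required for a call, and stood at 239 to 314 CPM in vitro. Its direction depended on the wild-type libraries. Against wild-type SET-seq without antibody, at 254 and 450 CPM, Nanog was called higher in knockout (1.06, adjusted p = 0.00557), and so was Sox2 (1.48, adjusted p = 0.00276). Of 10 core pluripotency genes tested, 3 rose and 1 fell (40% called, beside 28.0% of all genes tested), and none of the 4 was shown in vitro. Lin28a, an RNA-binding inhibitor of let-7, rose 3.55-fold, Sall4 rose 2.55-fold and Dppa2, a partner of DPPA4 at bivalent promoters, rose 2.42-fold, from 50.1 and 56.7 CPM to 89.9 to 134 CPM against 13.2 to 31.8 CPM in vitro. The Nodal co-receptor gene Tdgf1 fell from 441 and 469 CPM to 174 to 234 CPM (−1.02 ± 0.15), against 425 to 530 CPM in vitro, and its log2 fold change was −0.97 or −0.98 without the second library of KO2 or of wild type. Of 18 naive pluripotency genes, 2 fell, Klf4 and Gdf3, and 16 were not called (11.1% called).

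Genes of the primed epiblast and of Nodal signalling held many of the rises. Of 14 tested, 9 rose and 1 fell (71.4% called, beside 28.0% of all genes tested). The median log2 fold change was 1.99 beside 0.00 over all genes tested, and the in vitro median was 0.49. Only 2 of the 10 calls were already shown in vitro, and leaving out 1 library gave 8 to 10 calls. Besides Lefty1, Zic2, Dnmt3a and Dnmt3b, the members that rose included Otx2 (log2 fold change 2.42, in vitro 0.03), a homeobox factor of the epiblast, Lefty2 (2.21, in vitro 0.50), Sox3 (3.54, in vitro 2.5, already shown) and Eomes (1.67), a T-box factor of mesendoderm and trophoblast. Eomes was at 12.1 and 11.1 CPM in wild type, 29.4 and 28.9 CPM in KO1, 37.8 and 36.5 CPM in KO2 and 5.30 to 15.4 CPM in vitro (adjusted p = 0.000702). Sox3 overlapped, since 1 library of KO1 was at 0, and it was not called without either wild-type library (adjusted p = 0.0545 and 0.192). Eomes was also the one gene of the 6 trophoblast markers that could be tested, and it gave 28.9 to 37.8 of the 44.7 to 52.5 CPM summed over those markers in the knockout libraries.

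In the LIF pathway, Klf4, Socs3, Junb and Stat3 fell. Klf4 (chr4:55540009-55545347), a pluripotency factor induced by STAT3, was at 436 and 412 CPM in wild type, 60.8 and 68.4 CPM in KO1, 78.5 and 53.4 CPM in KO2 and 651 to 724 CPM in vitro. Wild type lay between knockout and in vitro (log2 fold change −2.56 ± 0.17, adjusted p = 5.75e-07, against 0.84 ± 0.08 in vitro). Socs3, the feedback inhibitor of this pathway, was at 30.7 and 58.6 CPM in wild type, 1.96 to 9.79 CPM in knockout and 58.3 to 81.1 CPM in vitro (−2.93 ± 0.43, adjusted p = 0.000133). Junb, an AP-1 factor, was at 38.8 and 51.3 CPM in wild type and 1.78 to 5.96 CPM in knockout (−3.20 ± 0.37). Junb was also called lower in vitro, at 8.37 to 17.5 CPM (−1.51 ± 0.16, adjusted p = 2.2e-09), with a log2 difference 0.47 of that in knockout. Stat3 itself was at 162 and 196 against 34.2 to 81.5 CPM (−1.56 ± 0.27). It was lower in vitro as well, at 93.3 to 109 CPM (−0.68 ± 0.09, adjusted p = 9.06e-08), with a ratio of 0.44. Of the 15 genes tested in the list of LIF-STAT3 and BMP-Id, 7 fell and 2 rose (60% called, beside 28.0% of all genes tested). The median was −0.78 in knockout and −0.25 in vitro. Of the 4 named, Klf4 and Socs3 went the other way in vitro, and Junb and Stat3 fell there by less than 50% of the knockout log2 change. The BMP targets Id1 (−1.28), Id2 (−1.15) and Id3 (−1.08) fell and Id4 (2.79) and Smad1 (1.19) rose in both comparisons. Without either wild-type library 5 of these 15 genes were called, each of them lower.

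Of 14 genes of FGF and ERK feedback, 4 fell and 2 rose (42.9% called, beside 28.0% of all genes tested). Spry2, an inhibitor of receptor tyrosine kinase signalling, fell from 28.3 and 32.7 CPM to 3.92 to 8.90 CPM (−1.96 ± 0.36, adjusted p = 0.00068) and was not shown in vitro, at 18.8 to 24.5 CPM. Spry4 and Etv4 fell more in KO1 than in KO2, as given with the clones, and Dusp14 fell by 1.22 on the log2 scale. All 3 of these falls were already shown in vitro, with log2 differences there of −3.24 (Spry4), −2.34 (Etv4) and −1.62 (Dusp14). Of 13 Wnt targets and feedback genes, 3 rose and none fell (23.1% called, beside 28.0% of all genes tested). These were Lef1, Sp8 and Axin2, the negative feedback scaffold, which rose from 61.4 and 46.2 CPM to 80.5 to 148 CPM (1.26 ± 0.24, adjusted p = 0.000916) and was higher still in vitro, at 169 to 202 CPM.

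The 2-cell-like genes gave the sharpest contrast with the in vitro libraries. Of 12 tested, 6 rose and 1 fell (58.3% called, beside 28.0% of all genes tested). The median log2 fold change was 1.63 in knockout and −1.89 in vitro, where 8 were called lower and none higher. With Zscan4c, the rises were Zscan4a, at 12.1 and 11.1 CPM in wild type, 102 and 117 CPM in KO1 and 86.5 and 93.4 CPM in KO2 (3.25 ± 0.25, adjusted p = 1.11e-06), Zscan4d (3.22 ± 0.34), Usp17la (2.38), Usp17lb (2.43) and Gm8300 (1.92). None of the 6 was shown in vitro. Zscan4 and Usp17l genes lie in clusters of near copies and reads with several matches were not counted, so the split among members is uncertain. Pramel6 fell (−2.61 ± 0.72), which the in vitro libraries already showed, and was not called without either wild-type library (adjusted p = 0.0844 and 0.122). Without the second wild-type library 3 of the 12 were called, each of them higher.

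Regulators held silent by Polycomb in embryonic stem cells were mostly too low to test. Of 70 lineage regulators in that list all had a count in some library and 9 were tested, so the calls describe only those that were expressed. Of these 9, 5 rose, among them Zic2, Meis2 (2.22, in vitro 0.49), Eomes and Cdkn1c, and 2 fell, Nkx2-9, from 25.1 and 27 CPM to 0 to 3.56 CPM, and Gsc. These 7 were 77.8% of the 9, beside 28.0% called of all genes tested. Among the 7, Cdkn1c (1.38, in vitro 1.44) and Nkx2-9 were already shown in vitro. Without either wild-type library the call was lost for Gsc (adjusted p = 0.141 and 0.152) and for Cdkn1c (adjusted p = 0.0653 and 0.0548). All 39 Hox genes had a count, but 1 was tested and none was called. Among other lineage lists, Nes, an intermediate filament of neural progenitors, rose 4.82-fold and was already shown in vitro, Gbx2, a homeobox factor of the hindbrain boundary and of LIF signalling, fell 3.24-fold and was not, and Lama1, a laminin chain, fell from 39.6 and 38.7 CPM to 6.23 to 16.7 CPM against 230 to 280 CPM in vitro. Tfap2a rose 3.16-fold and was already shown in vitro. Krt8 rose 2.38-fold (in vitro log2 difference 0.50 ± 0.18), but had an adjusted p of 0.083 without the first wild-type library and was not called against H3K4me3 SET-seq or H3K27me3 SET-seq of fewer cells. Against wild-type SET-seq without antibody, at 96.4 and 85.2 CPM, the direction turned and Krt8 was called lower in knockout (−1.11, adjusted p = 0.00357).

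More imprinted genes fell than rose, and most of these changes were also seen in vitro. Of 28 tested, 10 fell and 5 rose (53.6% called, beside 28.0% of all genes tested), and 12 of the 15 were already shown. Mest, expressed from the paternal copy, was at 52.5 and 51.6 CPM in wild type and 0 to 6.96 CPM in knockout (−3.75 ± 0.46, adjusted p = 2.99e-05), with 2.65 to 8.79 CPM in vitro, and shared 32.9% of its exon bases with Copg2. Nnat fell from 17 and 19.5 CPM to 0 to 2.98 CPM (−3.22 ± 0.61), and H19, a maternally expressed noncoding RNA, from 13.7 and 10.2 CPM to 0 to 1.99 CPM (−3.33 ± 0.70). The list gave 9 calls without the first wild-type library and 8 without the second, and H19 was among those lost without the first (adjusted p = 0.0507). The 3 not shown in vitro were Kcnq1ot1 (1.21, in vitro −0.33), Phlda2 (−1.23, in vitro 0.55) and Cd81 (−1.02, in vitro −0.41). Of 14 germline genes tested, 35.7% were called. The 4 that fell were each already shown in vitro, and Dazl rose (1.11, in vitro −0.73). The synaptonemal complex gene Syce1 fell from 43.6 and 41.7 CPM to 6.42 to 18.7 CPM (−1.63 ± 0.34, adjusted p = 0.00151).

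Of 25 genes tested in the glycolysis list, 15 rose, none fell and 10 were not called, and the in vitro libraries already showed each of the 15 rises. The list also holds genes that are not enzymes of glycolysis, such as Bnip3 and Slc16a3. The 15 were 60% of those tested, beside 28.0% called of all genes tested. Of all 25, 21 had a log2 fold change above 0 and 4 below, with a median log2 fold change of 1.18 in knockout and 1.41 in vitro. Pfkp, the platelet-type phosphofructokinase, was at 89.7 and 92.8 CPM in wild type, 487 and 510 CPM in KO1, 558 and 577 CPM in KO2 and 459 to 514 CPM in vitro, so that knockout and in vitro libraries were side by side. Bnip3, a mitophagy receptor induced by hypoxia, rose from 11.3 and 9.61 CPM to 52.5 to 94.2 CPM (3.14 ± 0.30) and was at 170 to 216 CPM in vitro. The lactate exporter gene Slc16a3 rose 5.58-fold and Ndrg1 rose 8.13-fold, with still larger in vitro differences (3.87 and 4.41 on the log2 scale against 2.48 and 3.02). Slc2a1, Hk1, Gpi1, Pfkm, Aldoa, Pgk1, Eno1, Pkm, Ldhb, Pdk1 and P4ha1 were the other members that rose, by 1.05 (Aldoa) to 1.88 (Pdk1) on the log2 scale. Leaving out 1 library gave 13 to 15 rises. Against wild-type SET-seq libraries made without antibody, 8 rose and 1 fell.

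In purine metabolism, 4 of 18 genes were called (22.2%, below the 28.0% of all genes tested). Hprt and adenosine deaminase (Ada, from 46.9 and 49.2 CPM to 4.91 to 13.3 CPM) fell, both already shown in vitro. For Hprt this followed from the choice of the in vitro reference, which was made for its low Hprt. The de novo synthesis genes Gart, already shown in vitro, and Pfas, not shown, rose 2.26-fold and 2.61-fold. Pfas was at 201 and 186 CPM in wild type and 383 to 499 CPM in knockout, while the in vitro range of 96.7 to 133 CPM lay below wild type. Gart had a log2 fold change of 0.99 without the second library of KO2. Of 11 genes of ferritin and iron, 2 fell (18.2% called). Fth1, the ferritin heavy chain, fell from 1994 and 1901 CPM to 446 and 428 CPM in KO1 and 294 and 299 CPM in KO2 (−2.27 ± 0.17, adjusted p = 1.15e-06), beyond the in vitro range of 1107 to 1250 CPM. Both ferritin genes have near copies in the genome, so that uniquely mapped counts may miss part of their reads.

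Of 27 genes of cholesterol and lipid synthesis, 6 rose and 2 fell (29.6% called, near the 28.0% of all genes tested). Scd2, a fatty acid desaturase, rose from 318 and 273 CPM to 1013 to 1576 CPM (2.29 ± 0.20, adjusted p = 3.41e-06), beside 1390 to 1503 CPM in vitro. Acaca, acetyl-CoA carboxylase, rose from 38.0 and 27.6 CPM to 88.5 to 133 CPM (1.92 ± 0.25) against 31.0 to 45.0 CPM in vitro, and Acly (1.19, in vitro 0.18) and Fasn (1.18, in vitro −0.80), the flanking steps of fatty acid synthesis, were likewise not shown in vitro. The mevalonate kinases Mvk (−2.07 ± 0.45, in vitro −0.01) and Pmvk (−1.47 ± 0.25, in vitro −1.15) fell. Of 24 genes of the integrated stress response and amino acid supply, 6 rose and 3 fell (37.5% called, beside the same 28.0%). Those that fell were the stress factors Xbp1 (from 119 and 95.2 CPM to 26.5 to 38.8 CPM, with 63.6 to 84.6 CPM in vitro), Atf4 (−1.16, in vitro 0.51) and Ddit3 (−1.63 ± 0.58, in vitro 1.34), none of them shown in vitro. Ddit3 was not called in 4 of 6 fits with 1 library left out (adjusted p = 0.0616 to 0.281), and without the second wild-type library 5 of the 24 genes were called.

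Among targets of p53, every gene that fell had already fallen in the in vitro libraries. Of 22 tested, 8 fell and 1 rose (40.9% called, beside 28.0% of all genes tested), with a median of −0.72 in knockout and −0.79 in vitro. Besides Perp, they were Ddit4l (3.55-fold), Phlda3 (2.80-fold), Plk2 (2.71-fold), the p53 ubiquitin ligase gene Mdm2 (−1.05), Ccng1 (−1.29), Btg2 (−1.21) and Trp53inp1 (−1.04). Phlda3 went from 128 and 141 CPM to 36.4 to 55.2 CPM (adjusted p = 0.000103), beside 23.9 to 42.8 CPM in vitro. Sesn2 (1.01, in vitro 0.30) rose and was not shown in vitro. Plk2 had an adjusted p of 0.0642 without the second wild-type library.

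Among cell cycle genes, 3 of 15 rose and 3 fell (40% called, beside 28.0% of all genes tested). The D-type cyclin gene Ccnd3 fell from 196 and 178 CPM to 25.7 to 57.8 CPM (−2.09 ± 0.26, adjusted p = 3.24e-05), beside 30.8 to 42.1 CPM in vitro, and shared 15.8% of its exon bases with Bysl. Cdk6 rose from 33.1 and 51.6 CPM to 114 to 134 CPM (1.65 ± 0.23, adjusted p = 6.84e-05) and was not shown in vitro, at 37.1 to 57.1 CPM. Of 16 heat shock genes, 3 rose and 3 fell (37.5% called). Bag3, a co-chaperone, rose from 29.1 and 24.3 CPM to 89.0 to 101 CPM (2.00 ± 0.21, adjusted p = 1.16e-05) and was not shown in vitro, where its log2 difference was 0.79 ± 0.17, whereas Hspa4 (2.88-fold higher) and the regulator Hsf1 (2.45-fold lower) were. Of 22 actin and SRF target genes, 5 rose and 3 fell (36.4% called). Lmna, nuclear lamin A/C, fell from 53.3 and 47.7 CPM to 9.62 to 11.9 CPM (−2.04 ± 0.28, adjusted p = 6.47e-05) and stood at 33.6 to 44.1 CPM in vitro. Of 10 HMG protein genes, 4 rose and 1 fell (50% called). Hmga2, an architectural protein of early embryonic cells, rose 4.51-fold and Hmgn1 fell 2.91-fold, both already shown in vitro.

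Among the ribosomal protein and respiratory chain genes, every call was lower in the clones, in shares close to the 32.0% called lower among all genes of the shortest quartile of exon length. Of 78 ribosomal protein genes tested, 24 fell, none rose and 54 were not called (30.8% called), with a median log2 fold change of −0.75 in knockout and 0.41 in vitro, and 3 of the 24 were already shown. Rps2, of the small subunit, was at 1081 and 873 CPM in wild type, 130 and 147 CPM in KO1, 181 and 268 CPM in KO2 and 742 to 1304 CPM in vitro (−2.27 ± 0.25, adjusted p = 1.22e-05). Rpl41, the smallest protein of the large subunit, was at 5094 and 5617 CPM in wild type and 865 to 1686 CPM in knockout (−1.94 ± 0.22), against 3578 to 4288 CPM in vitro. Of 87 respiratory chain genes, 29 fell, none rose and 58 were not called (33.3% called), with medians of −0.69 in knockout and −0.33 in vitro, and 18 of the 29 were already shown. Ndufa1, of complex I, fell from 239 and 261 CPM to 23.9 to 49.2 CPM (−2.65 ± 0.21, adjusted p = 1.62e-06), and Uqcr10, of complex III, from 945 and 924 CPM to 126 to 204 CPM (−2.27 ± 0.18). Both were already shown in vitro (−1.39 and −1.30). Ribosomal protein genes have many processed copies, so uniquely mapped counts may miss part of their reads.

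Gene length moved with these falls. Over all genes tested, the quartile with the shortest exon length (96 to 1970 bases) had a median log2 fold change of −0.66, with 32.0% called lower and 3.78% called higher, and the quartile with the longest (4844 to 104320 bases) had a median of 0.57, with 3.45% lower and 28.5% higher. The 2 quartiles between had medians of −0.15 and 0.17. In the in vitro comparison the medians ran from −0.24 in the shortest to 0.12 in the longest quartile. The median exon length was 786 bases for the tested ribosomal protein genes, 868 for the respiratory chain, 5931 for the H3K4 methyltransferases and 5326 for the DNA methylation genes. The respiratory chain and ribosomal protein medians were thus near the −0.66 of the shortest quartile. The median exon lengths of the H3K4 methyltransferase and DNA methylation lists lay in the longest quartile, where 28.5% were called higher. The part that length plays in the calls of single genes was not tested. The proteasome, with a median exon length of 1344 bases, had 3 of 47 genes higher and 3 lower, with a median of −0.07. This was 12.8% called, beside 28.0% of all genes tested. The immunoproteasome subunit gene Psmb10 fell 6-fold, as already shown in vitro.

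**Figure D5:**
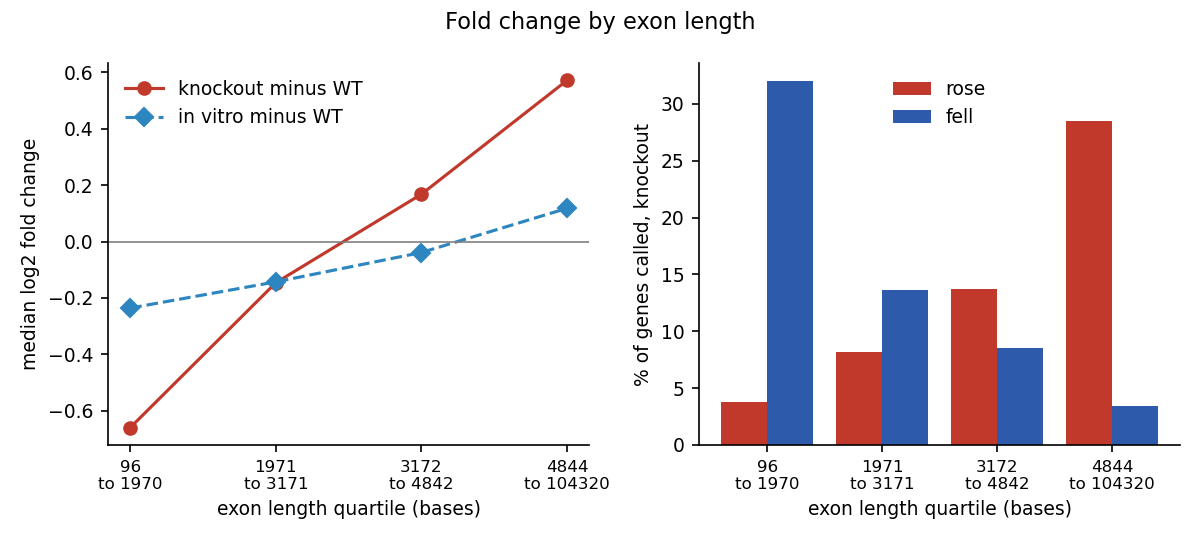
Left, median log2 fold change against wild type in quartiles of exon length (x axis, bases) for knockout (red, solid) and in vitro (blue, dashed). Right, percent of the genes of each quartile called higher (red) or lower (blue) in knockout. The knockout median runs from −0.66 in the shortest to 0.57 in the longest quartile, a wider span than the in vitro −0.24 to 0.12.

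Of 15 tested long noncoding RNAs known for nuclear roles or as small nucleolar RNA hosts, 5 fell and 3 rose. This was 53.3% called, beside 28.0% of all genes tested, and 2 of the 8 were already shown in vitro. Snhg8, a small nucleolar RNA host, fell from 63.0 and 79.6 CPM to 7.95 to 14.2 CPM (−2.40 ± 0.27, adjusted p = 1.64e-05) against 75.6 to 104 CPM in vitro, and Gas5 (−1.16, in vitro 1.81), Snhg1 (−1.32, in vitro 0.01) and Snhg6 (−1.40 ± 0.33, in vitro 0.95) fell likewise. Snhg8 shared 16.6% of its exon bases with Snora24, and Snhg6 had an adjusted p of 0.0826 without the second wild-type library. Xist, which coats the inactive X chromosome, stood at 3.23 and 4.80 CPM in wild type, 18.6 and 29.9 CPM in KO1 and 5.96 and 8.01 CPM in KO2. Its log2 fold change of 1.97 ± 0.62 was not called without either wild-type library (adjusted p = 0.117 and 0.1), and its exons overlap those of the antisense Tsix in counts made without strand. Among 116 small nucleolar and Cajal body RNA genes, 59 had a count and none was tested. Replication-dependent histone genes, whose messages lack a poly(A) tail, had 18 of 72 tested, with 2 higher and 2 lower (22.2% called).

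The clones differed from one another in 363 of the 9523 genes (3.81%), by the same rule. Pcsk1n, a secreted inhibitor of prohormone convertase, fell from 42.0 and 47.4 CPM to 6.87 and 3.21 CPM in KO1 and to 0 in both KO2 libraries, against 19.9 to 33.5 CPM in vitro. Ap3b2, a subunit of the neuronal AP-3 adaptor, rose to 184 and 137 CPM in KO1 and to 42.7 and 43.6 CPM in KO2, from 8.08 and 6.61 CPM in wild type. The ERK feedback targets Etv4 and Spry4 were lower in KO1 than in KO2, with wild type above both clones. Etv4 was at 44.4 and 42.6 CPM in wild type, 3.92 and 4.28 CPM in KO1 and 23.9 and 18.7 CPM in KO2 (clone difference −2.45 on the log2 scale), and Spry4 at 30.7 and 35.7, 4.91 and 1.07, and 8.95 and 16 CPM (−2.12). Etv4 and Spry4 lost their call against wild type without the second wild-type library (adjusted p = 0.083 and 0.0889), and Etv4 also without the first (adjusted p = 0.0681). Both falls were already shown in vitro, at 3.67 to 10.6 CPM for Etv4 and 0 to 6.59 CPM for Spry4. Egr1, an immediate early gene of the same pathway, was at 0.808 and 2.40 CPM in wild type, 3.92 and 6.42 CPM in KO1 and 23.9 and 16 CPM in KO2. It was not called against wild type without either wild-type library (adjusted p = 0.0808 and 0.055), and its log2 fold change was −0.08 (adjusted p = 0.904) against wild-type SET-seq without antibody. Sox2 was at 202 and 259 CPM in KO1 and 100 and 87.2 CPM in KO2, on either side of wild type, a clone difference of 1.19 on the log2 scale.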

How the data were processed

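Raw counts per gene were deposited by the authors as featureCounts tables, 1 per library. Per the study's methods and the file headers, reads were trimmed with Trim Galore 0.6.4, mapped with STAR 2.5.4b to mm9 without mitochondria, and counted over RefSeq exons in pairs, without strand and without reads that fit several places or genes. The 4 knockout files came from featureCounts 2.0.1 and the other 50 from 2.0.0. Genomic libraries and single cells were not analysed here.

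Rn45s, 21.9% to 56.7% of counts in the 6 libraries, was left out of counts and library sizes. Counts were tested with edgeR 4.0.16 (R 4.3.3; TMM, filterByExpr, quasi-likelihood test). A gene was called at a Benjamini-Hochberg adjusted p below 0.05 over all genes tested and an absolute log2 fold change above 1. Both clones formed 1 group, as in the study, and the difference between clones came from a fit with 3 groups. The in vitro libraries were fitted alike against the same wild-type libraries. The members, the 38 gene lists and the tests were chosen with earlier results of these data known. Named genes were Aebp2, Hprt, the PRC2 genes, the 12 largest rises and falls, the 10 largest of each not shown in vitro, and up to 4 called members per list with the largest change, of genes with at least 10 CPM in the higher group and, for the largest changes, no overlap between groups, without Gm, Rik, Rps, Rpl or pseudogene-like names in those; further list members are given by their log2 fold change and were named after their values were seen. A further gene that the rule names is not reported here. Each clone was sequenced in 2 experiments, and p-values measure the spread between these libraries. Ratios of low counts carry exact conditional 95% intervals from counts pooled over the libraries of each group. These intervals leave out the spread between libraries and between clones. On simulated counts with 4-fold changes the knockout fit recovered 99% of 194 changed genes among 9205, with 1.03% false calls, and the in vitro fit 100% of 191 among 10356, with 0.521%. The simulated counts had 200 changed genes, 1 dispersion for all genes and no difference between clones. These rates therefore do not measure the error of the calls in the data. Replicates were not duplicates (chi-square per degree of freedom 1.64 in wild type, 1.94 in KO1 and 2.94 in KO2). Alternatives were DESeq2 1.42.0, other size factors, Rn45s kept, no filter, single clones, clones as separate groups, other wild-type SET-seq libraries, other in vitro libraries, a replicate block, an unadjusted p and leaving out each library. Guides were located in NCBIM37, the assembly of mm9, with GENCODE vM1 transcripts. Gene coordinates are those of the deposited tables.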

Additional observations from a re-analysis of the deposited data

Results flagged for a closer look

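For 14 named genes the fold change differed between the clones by a test of that difference (edgeR's quasi-likelihood test with 3 groups). On the log2 scale, KO1 minus KO2, it was −1.46 for Aebp2, 5.93 for Pcsk1n, 1.79 for Ap3b2, 1.25 for Dmgdh, 1.07 for Csrnp3, 1.69 for Nes, 1.67 for Xist and 1.19 for Sox2, all but Aebp2 higher in KO1. It was −2.45 for Etv4, −2.12 for Spry4, −2.03 for Egr1, −1.19 for Ndufa8, −1.15 for Plk2 and −1.0 for Stat3, which were lower in KO1. The size for Pcsk1n depends on the prior count, since both KO2 libraries were at 0. Across all genes 363 of 9523 (3.81%) differed in this way.

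In 15 named genes 1 of the 4 knockout libraries stood apart from the other 3 by Dixon's test at the 95% level, which chance alone gives in about 1 of 20 groups. The second library of KO2 stood apart low for Bnip3 (52.5 CPM) and Eloc (69.4 CPM), and the first high for Xbp1 (38.8 CPM). The first library of KO1 stood apart high for Rpl10a (16.7 CPM) and Hspa1b (8.83 CPM), and the second high for H2ac15 (9.62 CPM) and low for Epop (182 CPM). Of the remaining 8, 6 rested on a single library of KO1 with 1 or 2 counts where the other 3 had none, which was the first library for Emp1, Myl4 and Xlr3b (0.981 CPM each) and the second for Cryab and Xlr3a (1.07 CPM each) and Hprt (2.14 CPM). The other 2 were at 0 where the rest had 1 count each, Ly6g6e in the first library of KO1 (0 CPM) and Klk8 in the second (0 CPM).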

How the results depend on the processing

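The count of 2663 genes lay between 1822 and 3175 under every alternative but 1, including DESeq2 (2390) and the unadjusted p of the study (2789). With SET-seq libraries made without antibody as wild type it was 4413, of which 1961 were shared with the main calls in the same direction, and 2699 of those 4413 (61.2%) were already shown in vitro. The other settings for that share gave 1203 to 1885 of 2663 (45.2% to 70.8%). Without a filter on low counts 37.7% of calls were higher in knockout, against 48.5%. The 232 called list members numbered 176 to 308. Against wild type without antibody, calls moved to 44 (from 29) for the respiratory chain, 48 (from 24) for ribosomal proteins, 9 (from 15) for glycolysis and 5 (from 9) for the stress and amino acid list, and against H3K27me3 SET-seq of fewer cells ribosomal proteins had 37.

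Aebp2 (−1.20) kept its direction throughout and its call in part. Its log2 fold change was −0.64 in KO2 alone, −0.98 against H3K27me3 SET-seq of fewer cells, −0.97 against H3K4me3 SET-seq, −0.47 without antibody (adjusted p = 0.303) and −1.64 to −0.98 with 1 library left out. Hprt kept its call, with −11.8 to −8.51 when 1 library was left out.

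Uncalled genes near 0 changed sign: Ezh1 (−0.024), Rbbp4 (−0.015), Mtf2 (−0.16), Eloa (0.29), Pou5f1 (0.18) and Sox2 (−0.46) in KO2 alone, Rbbp4 (−0.53) against H3K27me3 SET-seq of fewer cells, Pou5f1 against H3K4me3 SET-seq (0.27), with DESeq2 (0.0019) and with Rn45s kept (0.0036), and Mtf2 without a filter (−0.012). With 1 library left out, Mtf2 ran from −0.012 to 0.24, Eloa from −0.20 to 0.098, Pou5f1 from −0.1164 to 0.07886 and Sox2 from −0.04656 to 0.4378. Against wild type without antibody the sign changed for Eloa (0.034), Eloc (0.70), Egr1 (−0.078), Krt8 (−1.11), Fbln1 (−0.21), Rb1 (0.38) and Nanog (1.06), of which Krt8 (adjusted p = 0.00357) and Nanog (adjusted p = 0.00557) passed the call in the turned direction. The cause of these changes was not tested.

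The replicate numbers did not pair the samples (residual correlations −0.0303 for wild type with KO1, 0.0162 for wild type with KO2 and −0.0617 for KO1 with KO2), and a replicate block gave 2548 calls. Of 144 or 145 called named genes, 113 and 120 were still called without the second or the first wild-type library. With 935126 to 1124026 counts per knockout library, genes at a few CPM rest on single counts.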

Other observations

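Hprt and Ftl1 divided the bulk expression libraries beyond the groups compared. All 28 in vitro libraries, across every temperature, Tn5 amount and RNA amount, held 0 to 1.29 CPM of Hprt and 3.09 to 57.2 CPM of Ftl1. The 20 wild-type SET-seq libraries, the 2 used here included, held at least 66.2 CPM of Hprt and 4704 CPM of Ftl1. The 2 ligation-based RNA-seq libraries held 181 and 184 CPM of Hprt, within the range of wild-type SET-seq, but 812 and 826 CPM of Ftl1, between both sets.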
